A study of Homo sapiens with 12 samples.

Results

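The genes described here are 40 genes of the endoplasmic reticulum (ER) that fold, glycosylate, export or degrade newly made secretory proteins, together with the sensors that watch that work. They were listed by name, with earlier results of these data known. All 40 were found among the 60902 genes with values. They had a mean of at least 1 TPM, as did 13854 genes in all. RNA was sequenced from A549/DDP, a derivative of the A549 human lung adenocarcinoma line that resists cisplatin (DDP), which crosslinks DNA. There were 4 groups of 3 libraries, and every group was of this resistant line. CON cells grew in normal medium with 2 g/L glucose and 10% fetal bovine serum. The TRF group stood for time-restricted feeding, with 6 h in normal medium and the other 18 h of each 24 h cycle in medium lacking serum and glucose. The DDP group received cisplatin, and the TRF+DDP group received both. The medium of the DDP group is not stated for these libraries and is taken here to be normal medium. A caption of the study that covers its sequencing figure gives a dose and a time of DDP, which may belong to a qPCR panel alone, and the methods give none for these libraries. Whether the drug in which the line was kept had been withdrawn from CON and TRF is not given in what was read here. Nor is the part of the cycle, in normal medium or in medium lacking serum and glucose, at which RNA of TRF and TRF+DDP was taken. The study's methods name A549 cells as the source of RNA where the sample labels name A549/DDP.

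Secretory proteins enter the ER through the SEC61 channel and are folded there by the Hsp70 chaperone BiP (HSPA5), the Hsp90 chaperone GRP94 (HSP90B1), the lectins calnexin and calreticulin, and disulfide isomerases. Proteins that fail to fold are drawn back to the cytosol and degraded, a route called ER-associated degradation (ERAD). When unfolded proteins build up, the sensors IRE1α (ERN1), ATF6 and PERK (EIF2AK3) start the unfolded protein response (UPR). IRE1α splices the mRNA of XBP1 into the form that encodes an active transcription factor, cleaved ATF6 becomes a transcription factor, and PERK slows translation while favouring that of ATF4. XBP1 and ATF6 are known to act through short promoter elements on chaperone and ERAD genes.

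Levels are given as TPM, a transcript level that corrects for gene length and sums to the same total in each library. A fold change is a difference of log2(TPM + 1), so it understates the change of the lowest genes. The test was limma's moderated test across all 13854 genes. Calling a gene needed a fold over 1.5 with an adjusted p under 0.05, and the interaction of TRF and DDP, the effect of DDP in TRF medium less its effect in normal medium, was called at the adjusted p alone. The same caption calls the 3 samples of a group biological replicates, without saying what was replicated, and the p-values measure the spread between these libraries. No library stood apart by correlation, which was 0.979 to 0.983 within groups and 0.915 to 0.979 between them. The mitochondrially encoded genes took 10.3 to 10.8% of TPM in the CON libraries, 9.88 to 9.99% in those of DDP, 6.37 to 8.84% in those of TRF, the lowest being the third library, and 8.28 to 8.55% in those of TRF+DDP, and their part in the results was not tested. Of 9 markers of lung epithelium and adenocarcinoma, KRT7, KRT8 and KRT18 were abundant, while KRT19, CDH1, EPCAM, NKX2-1, SFTPB and SFTPC had a mean below 1 TPM. None of 4 leukocyte markers or 3 endothelial markers had a mean of 1 TPM, and of 4 fibroblast markers COL1A1 alone did. Of the markers tested, COL1A1 was called lower in TRF+DDP against CON (log2 fold change -1.24). KRT8 and KRT18 were called higher there (0.87 and 0.77), and KRT7 was not called.

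Promoters were read first, because the chaperone genes are known for elements that UPR factors bind. RefSeq promoters (GRCh38.p14), from 250 bases before to 50 bases after each start site, were matched for 38 of the 40 genes. DERL1 and PDIA3 had no entry. Both strands were searched for the ER stress response element ERSE (CCAAT, any 9 bases, CCACG), for ERSE-II (ATTGG, any 1 base, CCACG) and for the core of the UPR element (TGACGTGG). ERSE was found in 7 of the 38 genes (18.4%), which were HSPA5, HSP90B1, XBP1, CALR, CANX, PDIA6 and CRELD2, against 25 of 27305 genes in the whole table (0.0916%). ERSE-II was found in HERPUD1, HYOU1 and SDF2L1 (7.89%, against 0.0696% of all genes). The core of the UPR element was found in DNAJC10, HYOU1, SSR3 and TXNDC5 (10.5%, against 0.927%). These motifs overlap, since CCACG is part of ERSE and ERSE-II, and the UPR core in HYOU1 overlaps an ERSE-II. CCACG alone was in 76.3% of the 38 genes and in 42.1% of all genes. CCAAT alone was in 84.2% and 39.7%. A further motif searched on both strands, CARE (TTGCATCA), was found in HERPUD1 alone of the 38 genes (2.63%, against 1.08% of all genes). The genes were listed by name, and genes of this kind are known for these elements. The higher shares were therefore largely fixed by the choice of genes and are not a result of these data. A match is a description of letters and not evidence of binding.

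The 8 stretches below run 5′ to 3′ on the strand of the gene, with the fixed letters of ERSE or ERSE-II in capitals, also where they lie on the other strand. They were picked by those letters, so their likeness in the capitals is set by the search.
XBP1, chr22:28800588-28800636, minus strand: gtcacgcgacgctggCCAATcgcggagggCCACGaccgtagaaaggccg
HSPA5, chr9:125241376-125241424, minus strand: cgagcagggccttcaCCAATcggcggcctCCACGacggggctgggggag
PDIA6, chr2:10812838-10812886, minus strand: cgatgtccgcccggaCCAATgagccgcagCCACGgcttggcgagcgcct
CRELD2, chr22:49918539-49918587, plus strand: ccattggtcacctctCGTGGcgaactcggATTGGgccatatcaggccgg
CALR, chr19:12938369-12938417, plus strand: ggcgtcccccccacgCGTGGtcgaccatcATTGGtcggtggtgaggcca
HERPUD1, chr16:56932010-56932050, plus strand: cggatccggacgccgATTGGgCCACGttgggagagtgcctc
SDF2L1, chr22:21642099-21642139, plus strand: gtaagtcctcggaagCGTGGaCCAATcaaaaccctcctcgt
HYOU1, chr11:119057259-119057405, minus strand: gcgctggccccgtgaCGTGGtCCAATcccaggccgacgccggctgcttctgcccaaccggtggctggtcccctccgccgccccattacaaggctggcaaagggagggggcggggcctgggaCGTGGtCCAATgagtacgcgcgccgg
XBP1, HSPA5, PDIA6, CRELD2 and CALR carry ERSE, with CCAAT first in XBP1, HSPA5 and PDIA6 and the reverse complement in CRELD2 and CALR. HERPUD1, SDF2L1 and HYOU1 carry ERSE-II, and HYOU1 has 2 copies. HSP90B1 also has 2 copies, of ERSE.

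**Figure D1:**
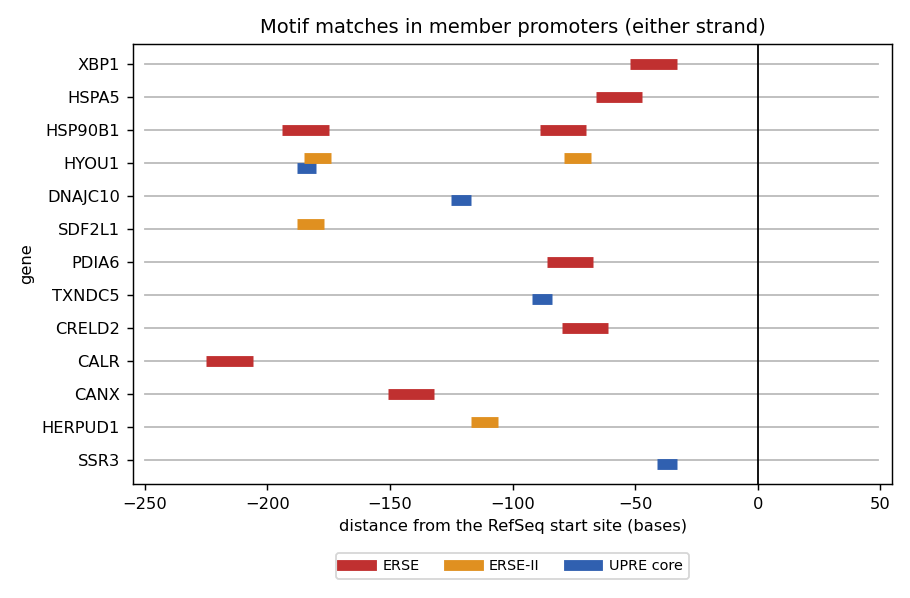
Position of each match in the promoters of the 13 genes with ERSE, ERSE-II or the UPR element core. The horizontal axis is the distance in bases from the RefSeq start site at 0, each grey line is 1 promoter and the coloured blocks are matches on either strand. Every match lies before the start site, from 225 bases before it in CALR to 34 bases before it in XBP1 and SSR3.

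Genes with the same element were not all called in TRF. Of the 7 genes with ERSE, HSPA5, HSP90B1 and XBP1 fell in TRF against CON, while CALR, CANX, PDIA6 and CRELD2 were not called, with log2 fold changes of -0.10, 0.01, 0.15 and 0.26. Of the 3 genes with ERSE-II, HERPUD1 fell, while HYOU1 and SDF2L1 were not called, at 0.29 and 0.12. Across all genes 17.1% were called lower in this comparison, and 7 and 3 genes are too few to set against that share. EDEM2, DNAJB9, MANF and EDEM1 fell in TRF with no match to ERSE, ERSE-II or the UPR element core in this window, which says only that these letters are not in it.

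TRF alone changed the level of 11 of the 40 genes against CON, 3 of them higher and 8 lower. Across all genes 25.6% were called in this comparison, 8.41% higher and 17.1% lower, so the share of these genes was close to the background. At an adjusted p under 0.05 and any fold, 30 of the 40 differed, against 60.7% of all genes. The risers were SSR3, SEC61G and SEC61B, all of the translocon. The genes that fell were XBP1, EDEM2, DNAJB9, HERPUD1, MANF, EDEM1, HSP90B1 and HSPA5. The median log2 fold change of the 40 genes was -0.05, and that of all genes tested was -0.11, but the sign depends on the scaling. With TMM-style scaling the medians were 0.06 and -0.01, and with quantile normalization -0.01 and 0.00. With TMM-style scaling, 4 genes rose and 6 fell, and with quantile normalization 2 rose and 8 fell, where all genes split into 1165 higher and 2375 lower as deposited, 1621 and 1858 with TMM-style scaling, and 1625 and 1635 with quantile normalization. With TMM-style scaling the folds of HSPA5 and HSP90B1 were just under 1.5.

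DDP alone changed 1 of the 40 genes against CON, DNAJB9, where 2.01% of all genes were called, 1.86% higher and 0.159% lower. Without the fold, 8 of the 40 passed the adjusted p, 7 higher and 1 lower, against 12.2% of all genes. In TRF+DDP against CON, 4 genes rose and 6 fell, 10 of 40 where 35.1% of all genes were called, 15.6% higher and 19.5% lower, and 28 differed at any fold, against 67.2%. In TRF+DDP against DDP, which asks what TRF adds to the drug, 2 rose and 9 fell, 11 of 40 where 33.2% of all genes were called, 11.8% higher and 21.4% lower, and 28 differed at any fold, against 65.4%. In TRF+DDP against TRF, 5 rose and 1 fell, 6 of 40 where 16.3% of all genes were called, 10.2% higher and 6.1% lower, and 23 differed at any fold, against 47.9%. These comparisons share groups, so their counts are not independent. In all, 18 genes were called in at least 1 of these 5 comparisons, and 22 in none.

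**Figure D2:**
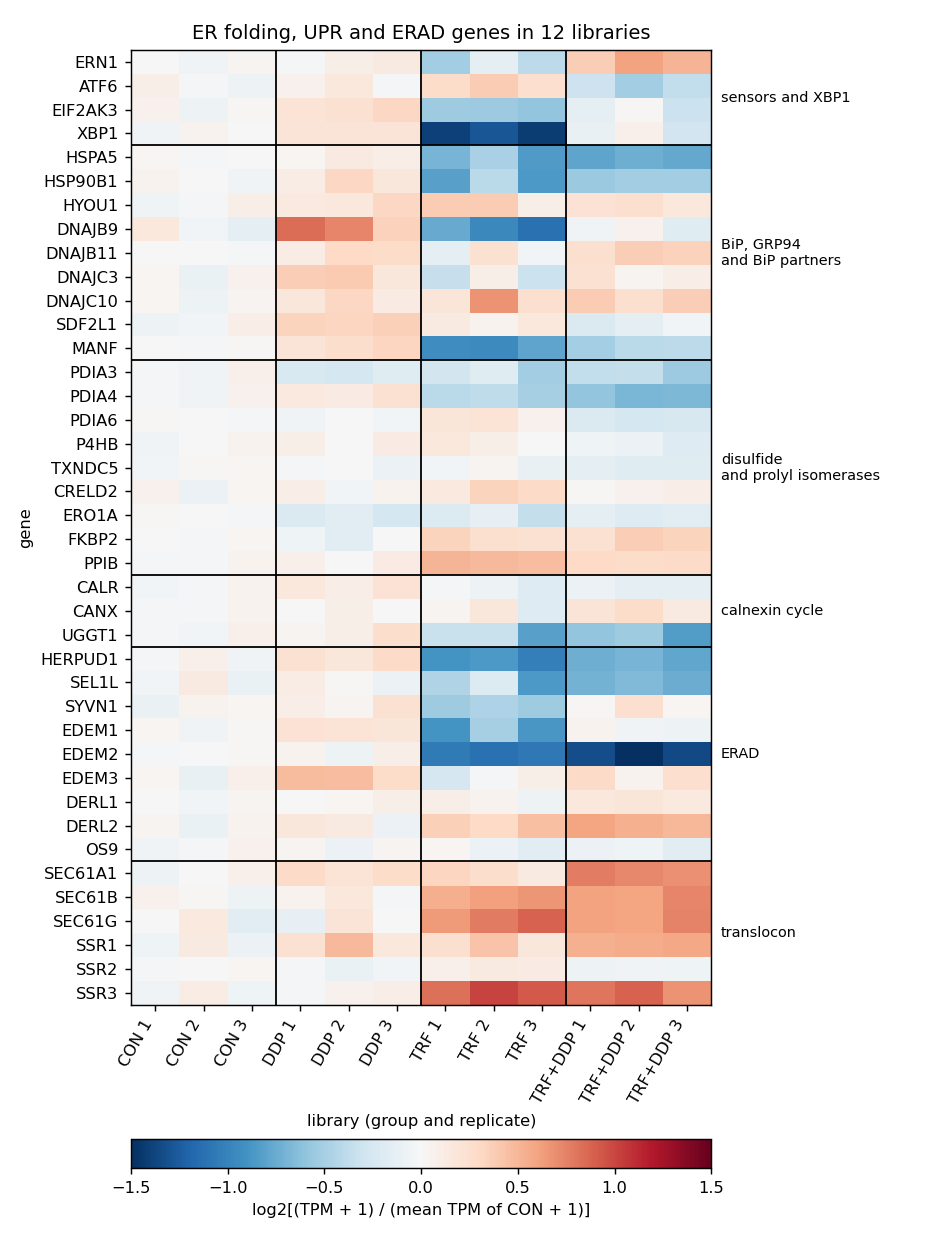
Level of each of the 40 genes (rows, grouped by role) in each of the 12 libraries (columns), as log2 of TPM + 1 relative to the mean of the 3 CON libraries, with blue lower and red higher. XBP1 and EDEM2 are the darkest blue in TRF, XBP1 is near its CON level in TRF+DDP while EDEM2 is not, and SSR3, SEC61G and SEC61B are red in all 6 TRF and TRF+DDP libraries.

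Of the 3 sensors and XBP1, XBP1 alone was called in TRF against CON, lower, and ERN1, ATF6 and XBP1 were called in TRF+DDP against TRF, where ATF6 fell and the others rose. XBP1 (ENSG00000100219, chr22:28794555-28800597, minus strand), the transcription factor of the IRE1α branch, was measured at 46.6, 50.2 and 48.1 TPM in CON, 55.2, 55.5 and 55.2 TPM in DDP, 17.7, 19.3 and 17.4 TPM in TRF and 44.8, 50.9 and 39.4 TPM in TRF+DDP. The 3 TRF libraries lay below all others, and the TRF+DDP libraries overlapped CON. XBP1 fell in TRF (log2 fold change -1.37, SE 0.078, adjusted p = 2.38e-08) and rose in TRF+DDP against TRF (log2 fold change 1.26, SE 0.078, adjusted p = 1.03e-07). The difference of TRF+DDP from CON, -0.11 (SE 0.078, adjusted p = 0.246), was not called. These are gene levels, in which spliced and unspliced XBP1 cannot be told apart.

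ERN1 (ENSG00000178607, chr17:64039142-64130819, minus strand), which encodes the splicing sensor IRE1α, was low throughout, at 2.48, 2.35 and 2.58 TPM in CON, 2.4, 2.69 and 2.81 TPM in DDP, 1.41, 2.13 and 1.65 TPM in TRF and 3.49, 4.26 and 3.93 TPM in TRF+DDP. TRF+DDP libraries were the highest and TRF libraries the lowest, with no overlap between them. ERN1 rose in TRF+DDP against TRF (log2 fold change 0.85, SE 0.115, adjusted p = 7.95e-05). Its difference of TRF from CON was -0.35 (SE 0.115, adjusted p = 0.0182), under the fold threshold. So were its differences of TRF+DDP from CON (0.49) and from DDP (0.43). Both were called with quantile normalization (0.63 and 0.67), and that from CON also with a pseudocount of 0.1 (0.63). ATF6 (ENSG00000118217, chr1:161766294-161964070, plus strand), the sensor that is itself a precursor of a transcription factor, ran the other way, at 20.3, 19 and 18.1 TPM in CON, 20.1, 21.4 and 18.9 TPM in DDP, 23.3, 25.3 and 23 TPM in TRF and 15.2, 13 and 14.6 TPM in TRF+DDP. Here the TRF libraries were the highest and the TRF+DDP libraries the lowest of all groups. ATF6 fell in TRF+DDP against TRF (log2 fold change -0.71, SE 0.075, adjusted p = 1e-05). EIF2AK3, which encodes the kinase PERK, was measured at 6.84, 6.1 and 6.59 TPM in CON, 7.66, 7.79 and 8.31 TPM in DDP, 4.2, 4.14 and 3.97 TPM in TRF and 5.82, 6.62 and 5.03 TPM in TRF+DDP. Every TRF library was below every library of the other groups, but the difference of -0.56 (SE 0.093, adjusted p = 0.00023) from CON was just under the fold threshold. It was called with a pseudocount of 0.1 (-0.65) and without the second CON library (-0.60).

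**Figure D3:**
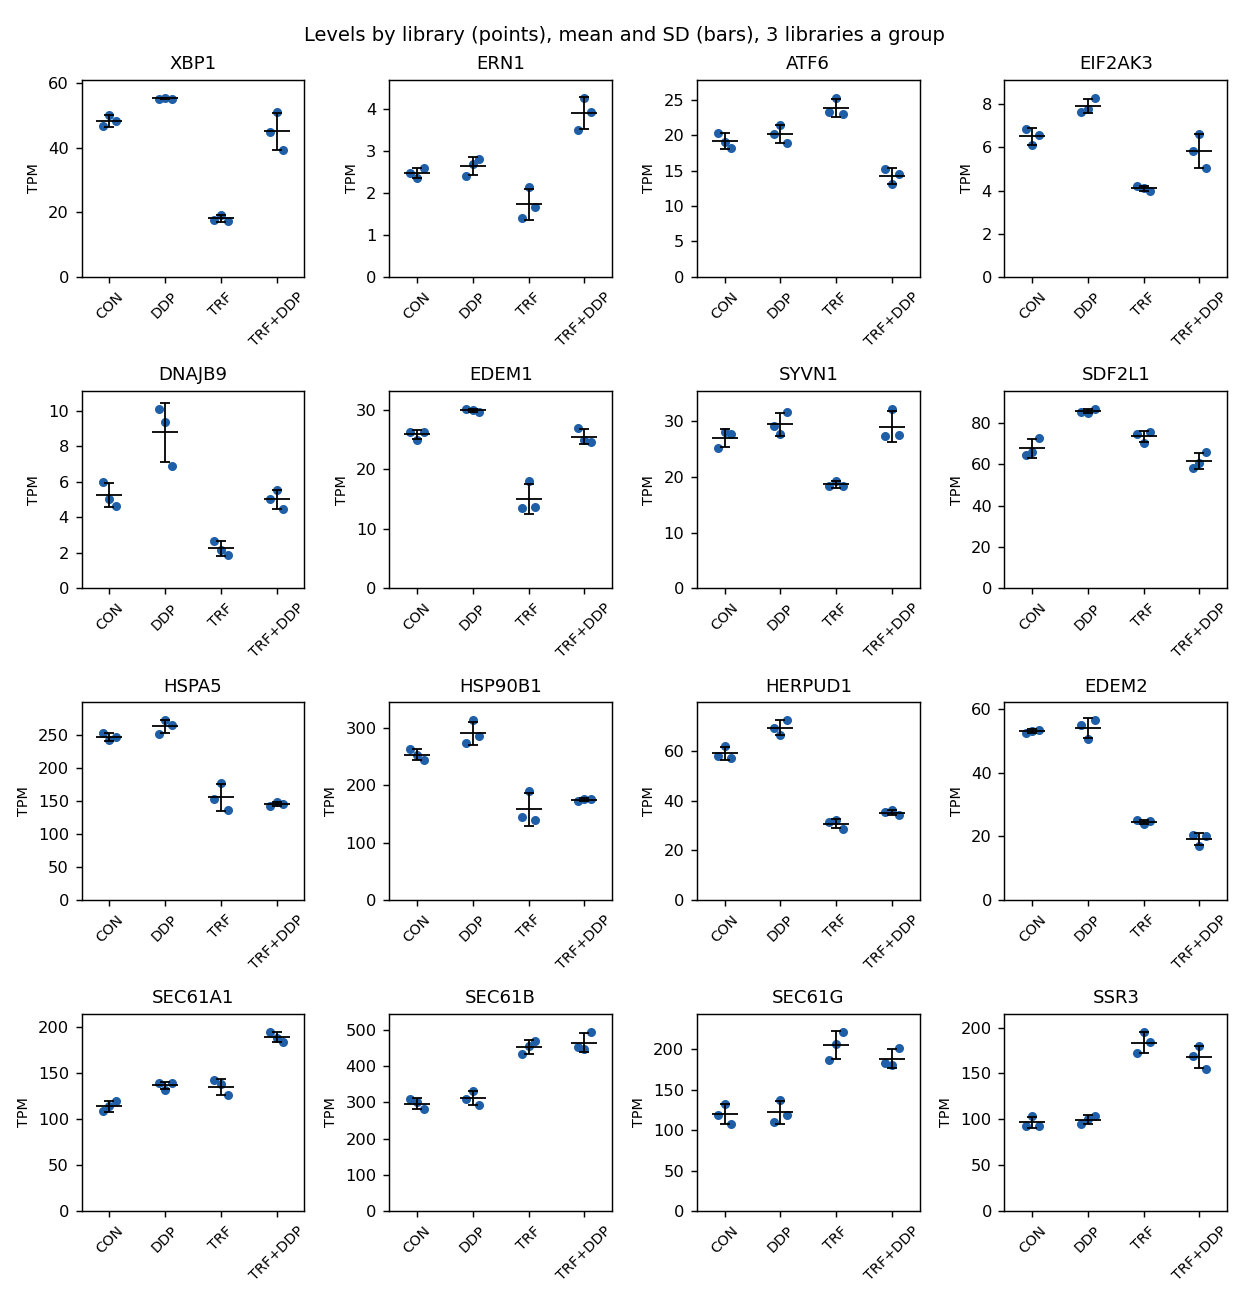
TPM of 16 genes in each library (blue points) with the mean (long bar) and SD (capped bar) of 3 libraries a group, on axes that start at 0. In the TRF column XBP1, DNAJB9, EDEM1 and SYVN1 are low, and in TRF+DDP they are near CON, with DNAJB9 called lower than in DDP. HSPA5, HSP90B1, HERPUD1 and EDEM2 are low in both TRF media. The translocon genes of the bottom row other than SEC61A1 are high in both TRF media.

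HSPA5 and HSP90B1 were lower in both TRF media. HSPA5 (ENSG00000044574, chr9:125234853-125241330, minus strand), which encodes BiP, the main Hsp70 of the ER lumen and a brake on all 3 sensors, was measured at 252, 241 and 246 TPM in CON, 252, 272 and 265 TPM in DDP, 152, 177 and 136 TPM in TRF and 143, 148 and 145 TPM in TRF+DDP. The TRF and TRF+DDP libraries overlapped each other and lay below all CON and DDP libraries. HSPA5 fell in TRF against CON (log2 fold change -0.68, SE 0.072, adjusted p = 5.77e-06) and in TRF+DDP against DDP (log2 fold change -0.85, SE 0.072, adjusted p = 4.97e-07). HSP90B1, which encodes GRP94, followed it, at 263, 254 and 245 TPM in CON, 275, 314 and 287 TPM in DDP, 144, 191 and 139 TPM in TRF and 172, 176 and 176 TPM in TRF+DDP. The TRF libraries spread widely, with the second well above the first and the third. HSP90B1 fell in TRF against CON (log2 fold change -0.69, SE 0.097, adjusted p = 6.63e-05) and in TRF+DDP against DDP (log2 fold change -0.73, SE 0.097, adjusted p = 3.19e-05). In TRF+DDP against CON its difference of -0.54 was under the fold threshold.

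DNAJB9 (also called ERdj4), a J-domain partner of BiP that restrains IRE1α, was the gene called with DDP in normal medium. SDF2L1 (0.34), MANF (0.26) and SEC61A1 (0.26) also passed the adjusted p there (0.00276, 0.00865 and 0.00905), with folds under 1.5. So did EDEM3 (0.41), HERPUD1 (0.23) and PDIA4 (0.16), at adjusted p of 0.0443, 0.0215 and 0.0472. ERO1A was lower (-0.22, adjusted p = 0.0339). DNAJB9 was measured at 5.98, 5.05 and 4.66 TPM in CON, 10.1, 9.34 and 6.89 TPM in DDP, 2.68, 2.18 and 1.87 TPM in TRF and 5.01, 5.53 and 4.49 TPM in TRF+DDP. DDP libraries were the highest and TRF libraries the lowest, with no overlap with CON in either case. DNAJB9 rose in DDP against CON (log2 fold change 0.64, SE 0.143, adjusted p = 0.013), fell in TRF against CON (log2 fold change -0.94, SE 0.143, adjusted p = 0.000108) and rose in TRF+DDP against TRF (log2 fold change 0.89, SE 0.143, adjusted p = 0.000281). The call in DDP against CON was lost with TMM-style scaling, with quantile normalization, without the third CON library (adjusted p = 0.0511) and without the first DDP library (adjusted p = 0.0564). DNAJB9 also fell in TRF+DDP against DDP (log2 fold change -0.69, SE 0.143, adjusted p = 0.000988). That call was lost with TMM-style scaling (-0.58) and with quantile normalization (-0.49). The interaction of DNAJB9, 0.25 (adjusted p = 0.385), was not called. Exons of DNAJB9 overlap those of PNPLA8 and THAP5 on the other strand, with means of 5.93 and 5.04 TPM, near its own level. MANF, a secreted factor that binds BiP, was measured at 159.6, 156 and 160.2 TPM in CON, 181, 189.8 and 199 TPM in DDP, 82.6, 81.4 and 91.3 TPM in TRF and 111, 119.7 and 120.1 TPM in TRF+DDP. All TRF libraries were under all TRF+DDP libraries, which were under all CON libraries. MANF fell in TRF (log2 fold change -0.89, SE 0.053, adjusted p = 3.49e-08) and in TRF+DDP against DDP (log2 fold change -0.69, SE 0.053, adjusted p = 1.93e-07), the second of which was under the fold threshold with TMM-style scaling.

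SDF2L1, part of a complex with BiP and its J-domain partners, was called in no pairwise comparison and had an interaction of -0.59 (SE 0.081, adjusted p = 0.000225). It was measured at 64.4, 65.9 and 72.7 TPM in CON, 85.3, 85 and 86.8 TPM in DDP, 74.5, 70.3 and 75.6 TPM in TRF and 58.1, 60.9 and 65.9 TPM in TRF+DDP. DDP libraries were above CON and TRF+DDP libraries below TRF, without overlap in either pair. The other partners were not called. The nucleotide exchange factor HYOU1 was 0.29 higher in TRF, and the J-domain proteins DNAJB11, DNAJC3 and DNAJC10 differed from CON in TRF by 0.02, -0.19 and 0.36 on the log2 scale. Summed over these 9 genes, the level was 837 ± 11.8 TPM in CON, 962 ± 38.5 TPM in DDP, 594 ± 54.9 TPM in TRF and 630 ± 13.8 TPM in TRF+DDP (SD, n = 3).

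The disulfide and prolyl isomerases, which form and rearrange disulfide bonds or turn proline bonds, numbered 9. None was called in TRF or DDP against CON, where 25.6% and 2.01% of all genes were. At an adjusted p under 0.05 and any fold, 7 of the 9 differed in TRF and 2 in DDP, against 60.7% and 12.2% of all genes. PDIA4 was measured at 119, 116 and 126 TPM in CON, 133, 131 and 141 TPM in DDP, 91, 92.1 and 84.9 TPM in TRF and 79.2, 74.6 and 75.2 TPM in TRF+DDP. Both TRF media were below all CON and DDP libraries, and TRF+DDP was below TRF. PDIA4 fell in TRF+DDP against CON (log2 fold change -0.65, SE 0.049, adjusted p = 1.39e-07) and against DDP (log2 fold change -0.81, SE 0.049, adjusted p = 2.14e-08). PPIB, the prolyl isomerase cyclophilin B and the most abundant of the 40 genes, was measured at 682, 682 and 718 TPM in CON, 731, 694 and 758 TPM in DDP, 987, 970.0 and 954 TPM in TRF and 850.5, 838 and 846 TPM in TRF+DDP. Its TRF libraries were the highest and its TRF+DDP libraries came next, but the difference of 0.48 in TRF against CON was under the fold threshold and over it with TMM-style scaling (0.60).

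Of the 9 isomerases, 5 had a called interaction, where 29.8% of all genes had one, with PPIB (-0.27), PDIA4 (-0.39), PDIA6 (-0.36) and P4HB (-0.26) lower and ERO1A, the oxidase that recharges the disulfide isomerases, higher (0.28). PDIA6 was measured at 238, 236 and 231 TPM in CON, 226, 235 and 229 TPM in DDP, 267, 272 and 247 TPM in TRF and 202, 196 and 198 TPM in TRF+DDP. It was above CON in TRF and below CON in TRF+DDP in every library. ERO1A, at 33.9, 33.6 and 33.2 TPM in CON, 28.7, 29.8 and 27.8 TPM in DDP, 29, 30.9 and 26.1 TPM in TRF and 30.4, 29.4 and 29.9 TPM in TRF+DDP, was lower than CON in every library of the other groups, and P4HB had means of 582 ± 20.5, 609 ± 28.5, 618 ± 33.6 and 538 ± 24.7 TPM in CON, DDP, TRF and TRF+DDP (SD, n = 3). PDIA3, TXNDC5, CRELD2 and FKBP2 were called in none of the 6 comparisons. Their TRF differences from CON were -0.33, -0.04, 0.26 and 0.27 on the log2 scale. Summed over the 9 genes, the level was 2233 ± 56.3 TPM in CON, 2252 ± 74.5 TPM in DDP, 2522 ± 95.5 TPM in TRF and 2219 ± 36.2 TPM in TRF+DDP (SD, n = 3), and PPIB alone went from 694 ± 20.9 to 970.1 ± 16.5 TPM between CON and TRF.

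In the calnexin cycle, in which lectins hold glycoproteins until they are folded, the lectins were not called and the folding sensor was. CALR (calreticulin) and CANX (calnexin) had TRF+DDP differences from CON of -0.12 and 0.20. UGGT1, which puts a glucose back on unfolded glycoproteins so that they bind the lectins again, was measured at 22.8, 22.5 and 24.6 TPM in CON, 24.1, 24.8 and 28.3 TPM in DDP, 18.3, 18.4 and 12.8 TPM in TRF and 15.1, 15.9 and 12.6 TPM in TRF+DDP. All TRF and TRF+DDP libraries were below all CON and DDP libraries. UGGT1 fell in TRF+DDP against CON (log2 fold change -0.65, SE 0.126, adjusted p = 0.000556) and against DDP (log2 fold change -0.79, SE 0.126, adjusted p = 0.000135), and its TRF difference of -0.49 from CON was under the fold threshold. Without the third TRF+DDP library the difference from CON was -0.56, under the threshold.

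Of the 9 ERAD genes, 3 fell and none rose in TRF against CON, where 17.1% of all genes were called lower and 8.41% higher. EDEM2 (ENSG00000088298, chr20:35115357-35147364, minus strand), a mannosidase-like protein that starts the trimming that marks glycoproteins for degradation, was measured at 52.6, 53.1 and 53.5 TPM in CON, 55, 50.5 and 56.4 TPM in DDP, 25, 23.8 and 24.8 TPM in TRF and 20.5, 16.8 and 20.1 TPM in TRF+DDP. Every TRF and TRF+DDP library lay far below every CON and DDP library, and TRF+DDP lay below TRF. EDEM2 fell in TRF (log2 fold change -1.08, SE 0.070, adjusted p = 7.09e-08) and in TRF+DDP against CON (log2 fold change -1.43, SE 0.070, adjusted p = 2.88e-09), and in TRF+DDP against DDP (log2 fold change -1.45, SE 0.070, adjusted p = 3.15e-09). HERPUD1 (ENSG00000051108, chr16:56932048-56944863, plus strand), which organises the ERAD complex at the ER membrane, was measured at 58, 62.2 and 57.2 TPM in CON, 69.5, 66.5 and 72.4 TPM in DDP, 31.2, 32.1 and 28.5 TPM in TRF and 35.3, 36 and 34.2 TPM in TRF+DDP. It separated the TRF media from the others without overlap. HERPUD1 fell in TRF (log2 fold change -0.93, SE 0.056, adjusted p = 4.02e-08) and in TRF+DDP against DDP (log2 fold change -0.96, SE 0.056, adjusted p = 1.73e-08).

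EDEM1, which takes part in the trimming that EDEM2 starts, had a different pattern, at 26.3, 25 and 26.3 TPM in CON, 30.1, 30.0 and 29.6 TPM in DDP, 13.5, 18 and 13.6 TPM in TRF and 26.9, 24.9 and 24.5 TPM in TRF+DDP. Its TRF libraries were low and its TRF+DDP libraries overlapped CON. EDEM1 fell in TRF (log2 fold change -0.76, SE 0.090, adjusted p = 1.49e-05), rose in TRF+DDP against TRF (log2 fold change 0.73, SE 0.090, adjusted p = 3.62e-05), and had an interaction of 0.53 (SE 0.128, adjusted p = 0.00813). SYVN1, the ubiquitin ligase HRD1 of the ERAD complex, was measured at 25.1, 28.1 and 27.6 TPM in CON, 29.1, 27.7 and 31.7 TPM in DDP, 18.3, 19.4 and 18.4 TPM in TRF and 27.3, 32.2 and 27.5 TPM in TRF+DDP. TRF was below the other groups in every library. SYVN1 rose in TRF+DDP against TRF (log2 fold change 0.60, SE 0.075, adjusted p = 3.93e-05), a call lost with TMM-style scaling (0.53), with quantile normalization (0.51) and without the second TRF+DDP library (0.53). Exons of SYVN1 overlap those of FAU, with a mean of 2279 TPM on the same strand, and of MRPL49, at 113 TPM on the opposite strand, so the level of SYVN1 is uncertain. SEL1L, the partner that holds SYVN1 in the complex, was measured at 25.2, 28.5 and 24 TPM in CON, 28.1, 26.3 and 24.2 TPM in DDP, 18.7, 22.4 and 13.8 TPM in TRF and 15.4, 16.1 and 15.1 TPM in TRF+DDP. TRF+DDP libraries were below all CON and DDP libraries, and TRF libraries spread widely. SEL1L fell in TRF+DDP against CON (log2 fold change -0.70, SE 0.133, adjusted p = 0.000506) and against DDP (log2 fold change -0.72, SE 0.133, adjusted p = 0.000443).

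The other ERAD genes, EDEM3, DERL1, DERL2 and OS9, were called in none of the 6 comparisons. DERL2, a derlin of the membrane channel, had a mean of 46.4 ± 2.73 TPM in CON and 68.2 ± 2.17 TPM in TRF+DDP (SD, n = 3), a log2 difference of 0.55 that was under the fold threshold and over it with TMM-style scaling. In TRF+DDP the lectin OS9 differed from CON by -0.11 and EDEM3 by 0.20.

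Of the 6 translocon genes, the channel and its associated subunits, 3 rose and none fell in TRF against CON, and 4 rose and none fell in TRF+DDP against CON, where 8.41% and 15.6% of all genes were called higher. SSR3 (ENSG00000114850, chr3:156540140-156555184, minus strand), a subunit of the translocon-associated protein complex, was measured at 93.2, 104 and 92.5 TPM in CON, 94.7, 101 and 104 TPM in DDP, 172, 196 and 184 TPM in TRF and 169, 179.6 and 155 TPM in TRF+DDP. All TRF and TRF+DDP libraries were above all CON and DDP libraries. SSR3 rose in TRF (log2 fold change 0.92, SE 0.068, adjusted p = 2.28e-07) and in TRF+DDP against CON (log2 fold change 0.79, SE 0.068, adjusted p = 4.78e-07). SEC61G, a small subunit of the channel, was measured at 119, 133 and 107 TPM in CON, 109.7, 137 and 119 TPM in DDP, 187, 207 and 222 TPM in TRF and 183, 181 and 201 TPM in TRF+DDP. It rose in TRF (log2 fold change 0.77, SE 0.095, adjusted p = 2.21e-05) and in TRF+DDP against CON (log2 fold change 0.65, SE 0.095, adjusted p = 6.32e-05), and the second fold was just under 1.5 without the third CON library. In TRF+DDP against DDP its rise of 0.63 was under the fold threshold without the first DDP library (0.56) and without the third TRF+DDP library (0.58). SEC61B, another small subunit, was measured at 309, 299.7 and 280.5 TPM in CON, 308, 331 and 293 TPM in DDP, 434, 455 and 470.0 TPM in TRF and 452, 448 and 495 TPM in TRF+DDP. It rose in TRF (log2 fold change 0.61, SE 0.057, adjusted p = 1.83e-06) and in TRF+DDP against CON (log2 fold change 0.65, SE 0.057, adjusted p = 6.41e-07), and neither call held with quantile normalization. Without the third CON library or the third TRF library, the TRF fold was just under 1.5 (0.57 and 0.58 on the log2 scale).

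SEC61A1, the pore-forming subunit, differed in its pattern, at 108, 114 and 119.8 TPM in CON, 139, 131 and 138 TPM in DDP, 142, 137 and 125 TPM in TRF and 194, 188 and 184 TPM in TRF+DDP. The TRF+DDP libraries were the highest, and the TRF and DDP libraries overlapped each other. SEC61A1 rose in TRF+DDP against CON (log2 fold change 0.73, SE 0.054, adjusted p = 1.22e-07), and was 0.24 and 0.26 above CON in TRF and in DDP, both under the fold threshold. Exons of SEC61A1 overlap those of RUVBL1, at 54.3 TPM. SSR1 and SSR2 were called in no comparison, with TRF+DDP differences from CON of 0.56 and -0.06. Summed over the 6 genes, the translocon level was 1004 ± 24.8 TPM in CON, 1043 ± 25.1 TPM in DDP, 1391 ± 46.7 TPM in TRF and 1393 ± 23.1 TPM in TRF+DDP (SD, n = 3). Against it, the ratio of HSPA5 plus HSP90B1 to these 6 genes was 0.499 ± 0.0177 (SD) in the CON libraries, 0.531 ± 0.0188 with DDP, 0.225 ± 0.0321 with TRF and 0.230 ± 0.00428 with both. The ratio in every TRF and TRF+DDP library was below that in every CON and DDP library. HSPA5 and HSP90B1 were already lower and the translocon sum higher in those libraries, so the ratio is not further evidence. In bulk RNA, fewer cells of a kind and less RNA per cell cannot be told apart, and this holds for every value here.

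The interaction was called in 13 of the 40 genes, 6 higher and 7 lower, where 29.8% of all genes were called, 13.5% higher and 16.3% lower. Without the third TRF library 12 genes were lower in place of 7, with CALR, HSPA5, HYOU1, SEL1L and UGGT1 gained, and without the second DDP library 10 were. It was largest in XBP1, at 1.07 (SE 0.110, adjusted p = 2.64e-05), followed by ERN1 (0.78), ATF6 (-0.77), SDF2L1 (-0.59) and EDEM1 (0.53). With a fold over 1.5 asked of the interaction as well, 4 genes remained, XBP1, ERN1, ATF6 and SDF2L1. SEC61A1 (0.23) and ERO1A (0.28) had the smallest called positive values. The first was lost with the replicate block (adjusted p = 0.0585) and with TMM-style scaling (adjusted p = 0.0536), and the second without a filter on low values (adjusted p = 0.0597), among other alternatives.

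**Figure D4:**
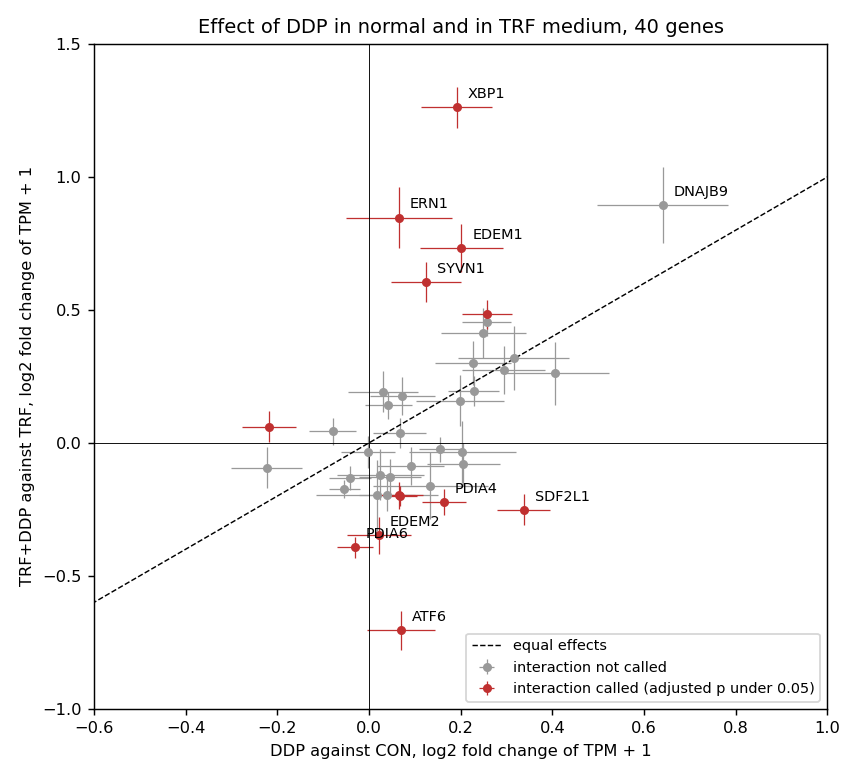
Effect of DDP on each of the 40 genes in normal medium (horizontal axis, DDP against CON) and in TRF medium (vertical axis, TRF+DDP against TRF), as log2 fold change of TPM + 1 with its standard error, and the dashed line of equal effects. Red points have a called interaction: XBP1, ERN1, EDEM1 and SYVN1 lie above the line and ATF6, PDIA6, EDEM2, PDIA4 and SDF2L1 below it, while DNAJB9 lies near it.

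Beyond the 40 genes, 126 further genes of the same work were listed, of which 123 were tested. In TRF against CON, 12 of them rose and 28 fell, in DDP against CON 2 rose and none fell, in TRF+DDP against CON 27 rose and 24 fell, in TRF+DDP against DDP 19 rose and 25 fell, and in TRF+DDP against TRF 13 rose and 2 fell. The genes called were 40, 2, 51, 44 and 15 of 123 in that order, where 25.6%, 2.01%, 35.1%, 33.2% and 16.3% of all genes were called. The further lists below are read against the same shares, which are 8.41% higher and 17.1% lower in TRF against CON, 15.6% and 19.5% in TRF+DDP against CON, and 11.8% and 21.4% in TRF+DDP against DDP.

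Of 17 further genes of translocation and signal peptidase, 4 rose and 2 fell in TRF, where 8.41% and 17.1% of all genes did, and 8 rose and 1 fell in TRF+DDP against CON, where 15.6% and 19.5% did. SEC11C, a catalytic subunit of signal peptidase, rose in TRF (log2 fold change 1.44, SE 0.072, adjusted p = 8.22e-09) and in TRF+DDP against CON (log2 fold change 1.47, SE 0.072, adjusted p = 2.92e-09). SPCS3, a further subunit of it, rose in TRF (log2 fold change 1.00, SE 0.098, adjusted p = 2.6e-06). SRPRB, of the receptor for the signal recognition particle, rose by 0.93. SRP68, of the particle itself, rose in TRF+DDP against TRF (log2 fold change 0.69, SE 0.040, adjusted p = 6.45e-08), while SEC63, which works with SEC62 beside the channel, fell in TRF (-0.69 on the log2 scale), a call lost with both other scalings.

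Of 38 further folding factors, 4 rose and 9 fell in TRF, and 5 rose and 10 fell in TRF+DDP against CON, the second close to the 35.1% of all genes called. The prolyl isomerases divided, with FKBP11 up by 1.20 in TRF and FKBP9 and FKBP7 down at -1.01 and -1.15. PDIA5, a disulfide isomerase, fell in TRF+DDP against DDP (log2 fold change -1.28, SE 0.054, adjusted p = 1.13e-09). SERP1, which associates with the translocon, rose in TRF (0.87). SIL1, a nucleotide exchange factor for BiP, had means of 36.3 ± 1.13, 38 ± 1.16, 35.8 ± 1.37 and 18.3 ± 0.585 TPM in CON, DDP, TRF and TRF+DDP (SD, n = 3). SIL1 fell in TRF+DDP against TRF (log2 fold change -0.93, SE 0.051, adjusted p = 3.9e-08).

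Of 25 further ERAD genes, 1 rose and 4 fell in TRF, under the 25.6% of all genes called, and 6 rose and 3 fell in TRF+DDP against CON, near the 35.1% of all genes. AUP1, a membrane protein of the ERAD complex, rose in TRF by 0.76 and RNF5, a membrane ubiquitin ligase, fell (-0.89). SELENOS and SELENOK, selenoproteins of the ER membrane, rose in TRF+DDP against TRF by 0.86 and 0.85. Of 12 genes of the oligosaccharyltransferase, which attaches glycans to new proteins, DAD1 alone was called in TRF, at 0.62, a call lost with quantile normalization.

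Of 11 membrane-bound factors and their partners, 1 rose and 4 fell in TRF, where 25.6% of all genes were called, and 1 rose and 6 fell in TRF+DDP against DDP, where 33.2% were. MBTPS1, the protease that makes the first cut in ATF6, had means of 89.3 ± 4.07 TPM in CON and 46.3 ± 2.9 in TRF, and fell (log2 fold change -0.93, SE 0.063, adjusted p = 1.08e-07). CREB3L4 and CREB3L2, membrane-bound relatives of ATF6, fell in TRF+DDP against DDP, with log2 fold changes of -1.39 and -1.16. BAK1, which with BAX opens mitochondria in apoptosis, rose in TRF by 0.79, and BAX fell (-0.71). Of 6 receptors for autophagy of the ER, none rose, and 2 fell in TRF against CON, 2 in TRF+DDP against CON and 4 in TRF+DDP against DDP, where 17.1%, 19.5% and 21.4% of all genes were called lower. The 4 were CALCOCO1 (-1.10), RTN3 (-0.82), RETREG1 (-0.82), whose call was lost with quantile normalization, and TEX264 (-0.63), whose call was lost with TMM-style scaling.

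Of 14 genes of stress response output that are known downstream of PERK and related kinases or of other branches, 1 rose and 7 fell in TRF, 2 rose and none fell in DDP, and 5 rose and none fell in TRF+DDP against TRF, where 25.6%, 2.01% and 16.3% of all genes were called. In TRF+DDP, 6 rose and 4 fell against CON, and 5 rose and 4 fell against DDP, where 35.1% and 33.2% of all genes were called. The interaction was called in 11 of the 14 genes, and in 29.8% of all genes. ATF4, the transcription factor whose translation PERK favours, was measured at 320.4, 322 and 315 TPM in CON, 298, 309 and 304 TPM in DDP, 131, 134 and 127 TPM in TRF and 183, 184 and 173 TPM in TRF+DDP. The TRF libraries were the lowest and the TRF+DDP libraries lay between TRF and CON. ATF4 fell in TRF against CON (log2 fold change -1.28, SE 0.036, adjusted p = 6.6e-11), and this is its mRNA and not its protein. DDIT3, which encodes CHOP, was measured at 15.4, 13.5 and 16.1 TPM in CON, 22.2, 24.5 and 25.1 TPM in DDP, 5.69, 6.15 and 5.96 TPM in TRF and 29.3, 26.3 and 26.5 TPM in TRF+DDP. TRF libraries were below all others and TRF+DDP libraries above all others. DDIT3 rose in TRF+DDP against TRF (log2 fold change 2.03, SE 0.078, adjusted p = 5.31e-09), and in DDP against CON (log2 fold change 0.64, SE 0.078, adjusted p = 0.000258), a call lost with both other scalings.

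PPP1R15A (GADD34), which restores translation by bringing a phosphatase to eIF2α, was measured at 18.4, 18.6 and 18.7 TPM in CON, 22.5, 21.2 and 21.7 TPM in DDP, 24.5, 27.4 and 25.9 TPM in TRF and 82.2, 97.9 and 77.3 TPM in TRF+DDP. Only the TRF+DDP libraries stood well above the rest. PPP1R15A rose in TRF+DDP against DDP (log2 fold change 1.92, SE 0.077, adjusted p = 7.71e-10) and against TRF (log2 fold change 1.68, SE 0.077, adjusted p = 1.26e-08). CHAC1, a glutathione-degrading enzyme, was measured at 2.85, 3.78 and 2.88 TPM in CON, 10.8, 9.29 and 12.7 TPM in DDP, 0.69, 0.9 and 0.84 TPM in TRF and 5.5, 6.69 and 3.5 TPM in TRF+DDP. It was highest in DDP and lowest in TRF. CHAC1 rose in DDP against CON (log2 fold change 1.51, SE 0.179, adjusted p = 0.0002) and in TRF+DDP against TRF (log2 fold change 1.75, SE 0.179, adjusted p = 7.5e-06). ATF3 rose in TRF+DDP against TRF by 1.73, and SESN2, a stress-induced regulator of mTORC1, by 2.02. TRIB3, a pseudokinase induced by CHOP, was measured at 27.7, 29 and 30.3 TPM in CON, 30.8, 30.6 and 32 TPM in DDP, 22, 20.5 and 22.8 TPM in TRF and 31, 29.4 and 29.3 TPM in TRF+DDP, and its TRF difference from CON of -0.40 was under the fold threshold.

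**Figure D5:**
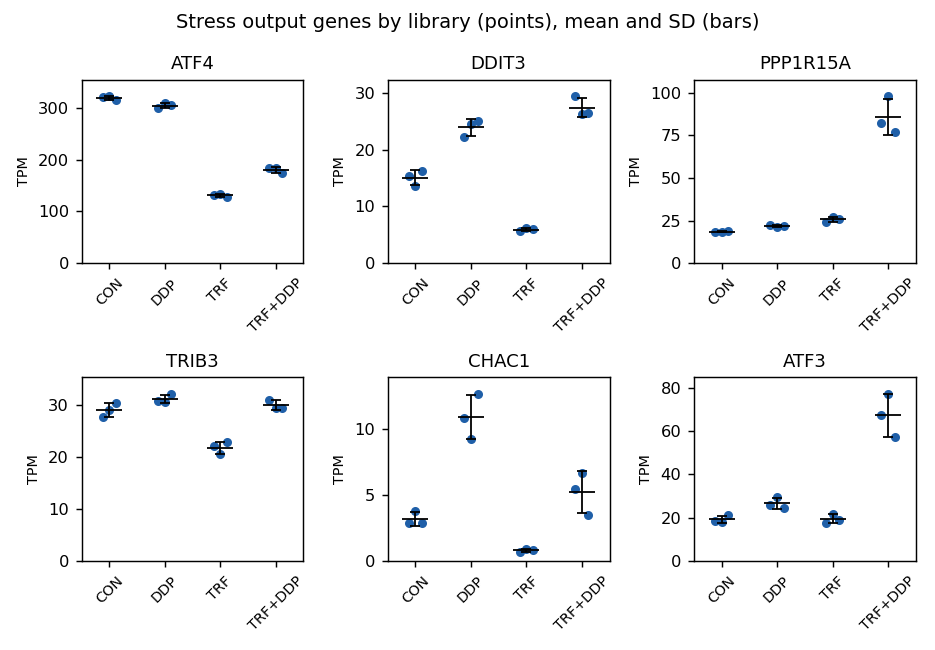
TPM of 6 stress output genes in each library (points) with the mean and SD of 3 libraries a group (bars), on axes that start at 0. PPP1R15A and ATF3 stand high in TRF+DDP alone, DDIT3 is lowest in TRF and highest in TRF+DDP, and ATF4 stays below CON in both TRF media.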

How the data were processed

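Poly(A) RNA of A549/DDP cells was sequenced in 12 libraries, 3 in each of CON, DDP, TRF and TRF+DDP. Reads were trimmed by the authors (SeqPrep, sickle), then aligned (HISAT2) and assembled into transcripts (StringTie), and the deposited values are TPM per gene and library. The submitters' processing notes name edgeR. For versions, genome build, quantifier and strand, nothing is stated (not given in the sources used here). TPM holds no read counts, so the depth per library is unknown and no counting error is given.

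Values were used as log2(TPM + 1). Those averaging 1 TPM or more over the 12 libraries were tested with limma 3.58.1 (R 4.3.3; trend, robust), all 4 groups sharing 1 model, and p-values were adjusted by Benjamini-Hochberg over all 13854 genes of each comparison. The fold of 1.5 and adjusted p of 0.05 are those of the study, whose own test needs counts. The procedure was checked on simulated data in which few genes changed. That check does not cover comparisons in which many genes change, or the choice of scaling. Alternatives were quantile normalization, TMM-style scaling, no trend, no filter, a filter of 1 TPM in each library, a pseudocount of 0.1, treat (a test against the fold), no fold, a replicate block, the groups compared only, and leaving out each library. Genes were named by rule: all 40 genes, with values in every library for the sensors, XBP1, HSPA5, HSP90B1, HERPUD1 and up to 4 further called genes a role with the largest change, and up to 4 called genes of each further list and comparison, of which some are printed, with DDIT3, ATF4, PPP1R15A, TRIB3 and CHAC1 always. The genes and lists were chosen with earlier results of these data known, so no list is independent evidence. Gene positions are from GENCODE v29 (GRCh38).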

Additional observations from a re-analysis of the deposited data

Results flagged for a closer look

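The effect of DDP differed between TRF medium and normal medium, by the interaction term of limma's fit, in 13 of the 40 genes, a share near the 29.8% of all genes called. The log2 interaction was 1.07 for XBP1, 0.78 for ERN1, 0.53 for EDEM1, 0.48 for SYVN1, 0.28 for ERO1A and 0.23 for SEC61A1. It was negative for ATF6 (-0.77), SDF2L1 (-0.59), PDIA4 (-0.39), EDEM2 (-0.37), PDIA6 (-0.36), PPIB (-0.27) and P4HB (-0.26). XBP1 had an adjusted p of 2.64e-05 and rose with DDP in TRF medium, where all 3 TRF+DDP libraries were above all 3 TRF libraries.

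Among the stress output genes named whatever their values, the interaction was 1.46 for PPP1R15A, 1.39 for DDIT3, 0.53 for ATF4 and 0.34 for TRIB3. Their adjusted p were 2.5e-06, 3.67e-06, 1.54e-05 and 0.00643. Others of that list were called too, among them ATF3 and SESN2, which had the largest interaction of the list. For CHAC1 the interaction was 0.24 and was not called (adjusted p = 0.523). Its TRF libraries were below 1 TPM, where log2(TPM + 1) understates a change, so its interaction is uncertain. Groups of 3 libraries are too small for a test of single outlying libraries.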

How the results depend on the processing

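No called gene named here changed direction under any alternative run, but medians and splits did with the scaling. In TRF against CON the median of the 40 genes was -0.05 as deposited and 0.06 with TMM-style scaling, and that of all genes was -0.11 and, with quantile normalization, 0.00. The count of the 40 genes called moved by more than 1.5 times mainly with the treatment of the fold. Tested against the fold (treat), 5 genes were called in TRF against CON, 0 in DDP against CON, 2 in TRF+DDP against CON, 4 in TRF+DDP against DDP, 1 in TRF+DDP against TRF (XBP1) and 1 for the interaction (XBP1). With no fold threshold, 30, 8, 28, 28 and 23 were called in the 5 pairwise comparisons in that order. The count for DDP against CON, 1 gene (DNAJB9), was 0 with TMM-style scaling, with quantile normalization, without the third CON library and without the first DDP library. Under those 4 alternatives its log2 fold change was 0.54 to 0.57. Asking a fold over 1.5 of the interaction, an alternative chosen after seeing the data, left 4 genes of 13.

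Leaving out each library in turn gave 10 to 12 genes in TRF against CON, 0 to 1 in DDP against CON, 9 to 11 in TRF+DDP against CON, 10 to 12 in TRF+DDP against DDP, 5 to 6 in TRF+DDP against TRF and 11 to 18 for the interaction, the highest without the third TRF library. In TRF+DDP against DDP, all genes split into 1631 higher and 2968 lower as deposited, 2122 and 2390 with TMM-style scaling and 2179 and 2273 with quantile normalization, and the 40 genes into 2 and 9, 5 and 7, and 3 and 8. In DDP against CON all genes split into 257 and 22, 169 and 37, and 169 and 46, and in TRF+DDP against TRF into 1413 and 845, 1169 and 1061, and 1049 and 1066, so that with quantile normalization more were lower than higher.

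The replicate numbers did not pair the samples: deviations of same-numbered libraries correlated at -0.082 to 0.0795 over 18 pairs, against -0.0835 to 0.126 over 36 other pairs. With the replicate block, 11, 1, 10, 11 and 6 genes were called in the pairwise comparisons and 13 for the interaction, where SEC61A1 was replaced by MANF. The limits are 3 libraries a group, TPM without counts, and an unknown depth.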
